A study of Mus musculus with 37 samples.

Results

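The genes described here are 46 mouse genes that drive the cell cycle and DNA replication, chosen by symbol from the 24421 genes of a count table of 37 RNA-seq libraries, and all 46 were found in it. The libraries came from wild-type female BALB/c mice that drank either water with BBN (N-butyl-N-(4-hydroxybutyl) nitrosamine, a carcinogen of the urinary tract) or plain tap water, over 18 weeks per the study's design text. UT stands for the ureter on the side with cancer in BBN mice (11 libraries from 10 mice, both ureters of mouse 5 among them), UN for that on the side without cancer (7 libraries from 7 mice, each with its own UT library), and U for the ureter of tap water mice (6 libraries, both ureters of 3 mice). The 10 libraries called BBN bladder came from the bladders of BBN mice (the sample description of bladder 6 holds the letter T, and those of the other 9 the letter N), and the 3 called untreated bladder from the same tap water mice as U. Total RNA was taken from each tissue sample as a whole, and no sort of cells is named in the protocol.

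A cell that divides first commits to a new cycle in G1, copies its DNA in S phase and then separates the copies in mitosis. The E2F transcription factors switch on the genes of the G1/S step, among them the MCM subunits of the helicase that opens DNA for copying and the enzymes that make deoxynucleotides. The genes of G2 and mitosis are switched on later by B-Myb (Mybl2) and Foxm1, which work with the MuvB complex at CHR elements and with the factor NF-Y at CCAAT boxes. The resting urothelium, the lining of the ureter and bladder, turns over slowly and divides after injury.

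The promoters of 4 members are shown because mitotic and replication genes are described apart below. They are the 250 bases before the RefSeq start site, read 5′ to 3′ on the gene's strand (GRCm38.p6), with CCAAT boxes, CHR elements and E2F-type sites in capitals on either strand. Mki67 (chr7:135716380-135716629, minus strand), Top2a (chr11:99024190-99024439, minus strand) and Cdk1 (chr10:69352913-69353162, minus strand) stood well above untreated tissue, though not with the largest changes, and Mcm6 (chr1:128359706-128359955, minus strand) was the furthest of the MCM genes in UT.
Mki67: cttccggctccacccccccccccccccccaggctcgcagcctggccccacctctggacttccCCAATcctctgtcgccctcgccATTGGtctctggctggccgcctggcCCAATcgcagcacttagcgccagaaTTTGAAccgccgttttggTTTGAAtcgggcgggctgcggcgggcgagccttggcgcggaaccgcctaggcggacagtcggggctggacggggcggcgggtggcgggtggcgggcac
Top2a: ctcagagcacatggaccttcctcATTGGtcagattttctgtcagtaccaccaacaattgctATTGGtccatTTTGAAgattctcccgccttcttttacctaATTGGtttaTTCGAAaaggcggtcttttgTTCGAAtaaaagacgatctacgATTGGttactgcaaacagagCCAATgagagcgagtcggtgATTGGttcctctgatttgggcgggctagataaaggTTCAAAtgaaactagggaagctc
Cdk1: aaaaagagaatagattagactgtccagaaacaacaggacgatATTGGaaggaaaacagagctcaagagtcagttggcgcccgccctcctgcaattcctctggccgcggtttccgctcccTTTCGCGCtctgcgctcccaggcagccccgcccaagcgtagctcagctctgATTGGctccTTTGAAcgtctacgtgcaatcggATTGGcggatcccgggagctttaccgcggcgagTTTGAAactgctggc
Mcm6: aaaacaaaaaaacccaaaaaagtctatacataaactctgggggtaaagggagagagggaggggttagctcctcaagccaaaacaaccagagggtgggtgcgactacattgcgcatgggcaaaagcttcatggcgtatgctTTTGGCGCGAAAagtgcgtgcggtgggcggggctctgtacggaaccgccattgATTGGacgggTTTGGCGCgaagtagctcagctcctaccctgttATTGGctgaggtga

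Motifs were searched on both strands as CCAAT, as TTTGAA or TTCGAA (CHR), and as TTTGGCGC, TTTCCCGC, TTTCGCGC, TTTGGCGG or TTTCCCGG (E2F-type), and sites of one kind may overlap those of another. The RefSeq table held a promoter for 37 of the 46 members. A CCAAT box stood in 29 of these 37 (78.38%), against 37.49% of all 27025 genes with a promoter of this length, and 2 or more stood in 19 (51.35%, against 11.51%). A CHR element stood in 13 (35.14%, against 19.55%), each time with a CCAAT box (7.001% of all genes held both), and an E2F-type site in 7 (18.92%, against 3.364%). By role, 9 of 19 members of the mitotic roles and the proliferation markers held a CHR element and 2 an E2F-type site, whereas of the other 18 members 4 held a CHR element and 5 an E2F-type site. Mcm6 carried 3 E2F-type sites, of which 2 overlapped, and Cdk1 carried 1 of these beside 2 CHR elements. The promoters shown of Mki67, Top2a and Cdk1 all held CHR elements, unlike that of Ccnb1, the member with the largest change in UT. These are matches of letters in a window and were not tested as binding sites.

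Levels below are CPM, a gene's count divided by its library's total and scaled to a total of 1000000, and library totals ran from 3558391 to 18794405 counts. Fold changes are from edgeR's quasi-likelihood fit, and a gene is called where its false discovery rate (FDR) over all genes tested was under 0.1 and its fold change at least 2. Of the 37 libraries, 5 had an RNA integrity number under 5 in the study's sequencing table: UN 6, U 1R and BBN bladders 1, 3 and 4. Each group was checked against its tissue with 13 urothelial markers (uroplakins, keratins and others). They summed to 1584 to 13042 CPM in UT, 2044 to 4028 CPM in U, 1858 to 15197 CPM in BBN bladder and 24494 to 25724 CPM in untreated bladder. In UN they ran from 42.2 CPM in UN 2 and 1282 CPM in UN 6 to 10885 CPM, so UN 2 was nearly without urothelial transcripts. In these bulk samples fewer cells of a type and less RNA per cell cannot be told apart.

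All 5 groups together showed low, even levels in the untreated organs and high, uneven ones after BBN. The mean of the 46 members on the log2(CPM + 1) scale lay between 2.16 and 2.39 in the 6 U libraries and between 2.63 and 2.68 in the 3 untreated bladders. It ran from 3.50 to 6.17 in UT, where the median was 4.63. The range was 2.54 to 5.19 in UN, with a median of 2.99, and from 3.11 to 5.601 in BBN bladder (median 4.91). No UT or BBN bladder library overlapped with its untreated organ in this mean. Together the 46 members took 274 to 322 CPM of a U library and 635 to 4140 CPM of a UT library. The spread over all genes was likewise wider after BBN, with a common dispersion of 0.0347 in U and 0.0211 in untreated bladder against 0.200 in UT, 0.276 in UN and 0.356 in BBN bladder. BBN bladder held 3 libraries of low RNA integrity, UN 1 and U 1, and the 6 U libraries came from 3 mice. The part of these in the spread was not tested.

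**Figure D1:**
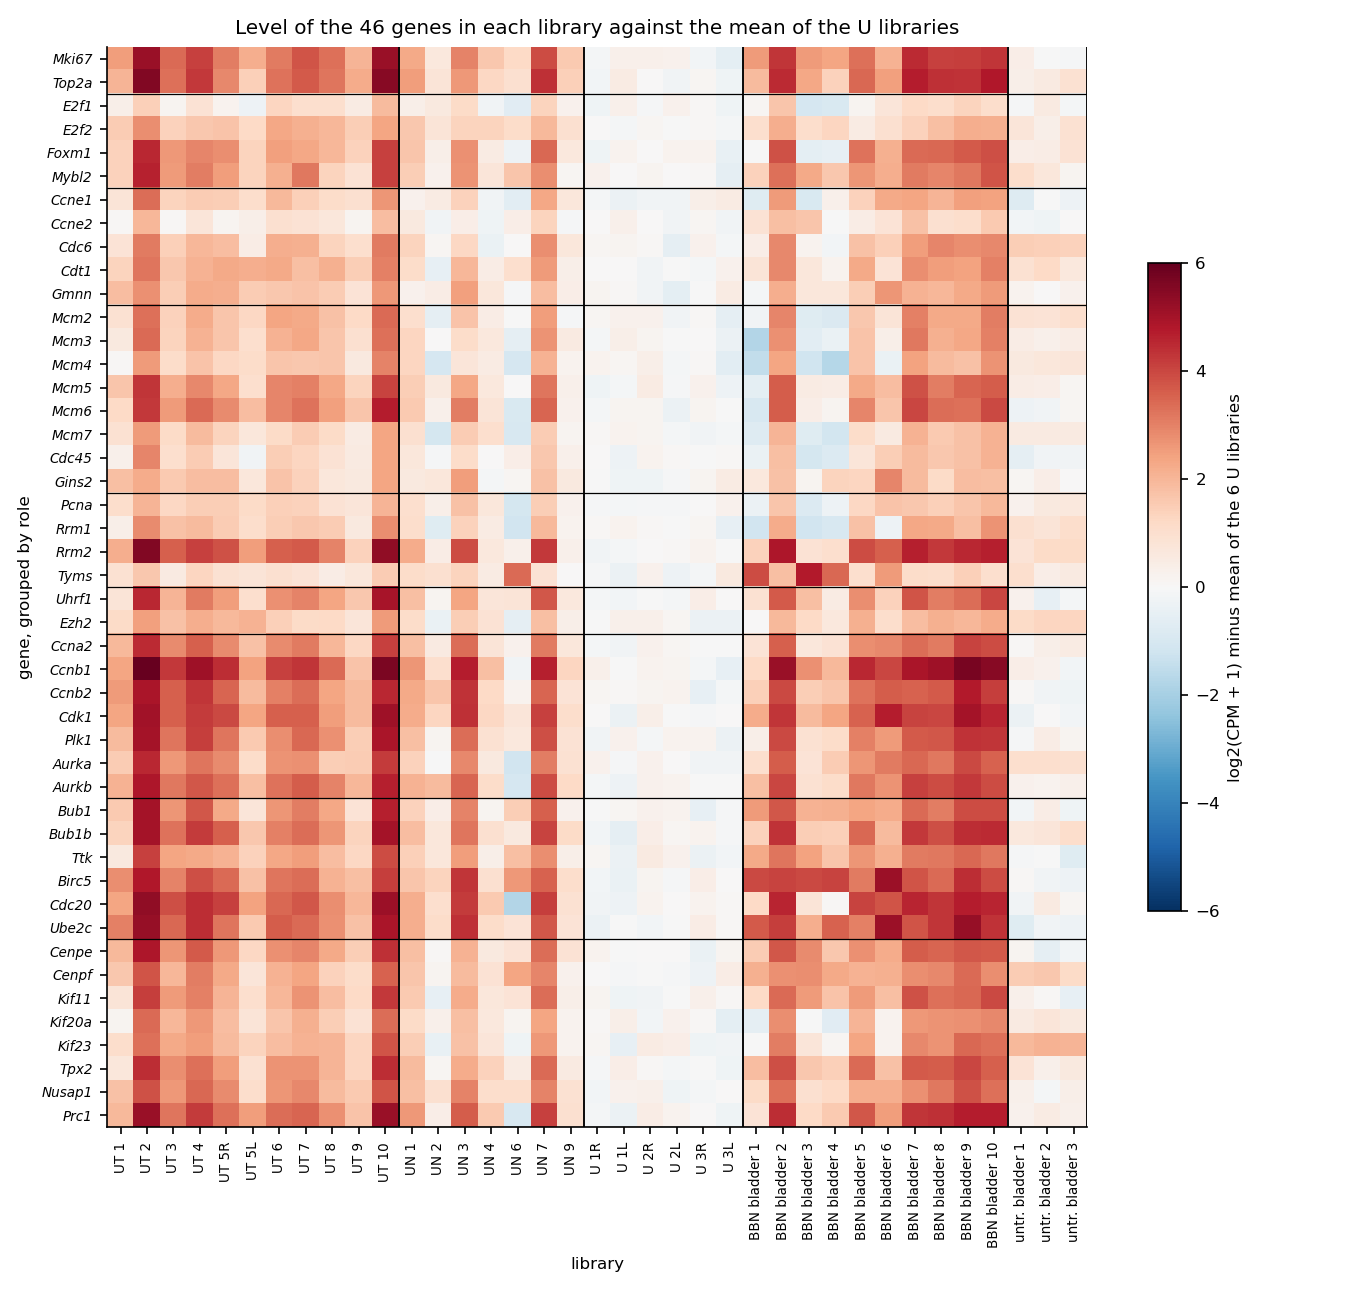
Level of each of the 46 genes (rows, grouped by role with lines between roles) in each of the 37 libraries (columns, grouped by tissue and treatment), as log2(CPM + 1) minus the mean of the 6 U libraries; red is above and blue below that mean. UT 2 and UT 10 are the deepest red columns, and Mcm2, Mcm3, Mcm4 and Mcm7 are blue in BBN bladders 1, 3 and 4, where Birc5 is red.

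The first comparison asked how far proliferation genes of the cancerous ureter stood from those of untreated ureter. In UT against U, 43 of 46 members were called higher and none lower, with a median log2 fold change of 3.04 where that of all 15662 genes tested was 0.11. Of all genes tested, 18.6% were called higher and 12.3% lower. In 40 of the 46 members every UT library lay above every U library, as in 14.9% of all genes tested. The 3 members that were not called were E2f1 (log2 fold change 0.72, SE 0.32, FDR 0.071), Ccne2 (0.73, SE 0.34, FDR 0.081) and Tyms (0.70, SE 0.46, FDR 0.22). The number called higher was 42 or 43 under every alternative tried, each library left out in turn included.

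The proliferation markers were among the clearest. Mki67, which encodes the Ki-67 protein that coats chromosomes in dividing cells, measured 13.4 to 127 CPM in UT (median 34.4) and 1.37 to 3.31 CPM in U (median 2.76). It measured 4.48 to 52.6 CPM in UN (median 9.76), 14.02 to 76.8 CPM in BBN bladder (median 46.4), and 3.62, 2.46 and 2.35 CPM in the untreated bladders. Every library of a BBN mouse thus lay above every library of a tap water mouse. The log2 fold change in UT against U was 3.96 (SE 0.57, FDR 4.2e-05). Top2a, the topoisomerase that untangles replicated chromosomes, measured 11.1 to 204 CPM in UT (median 41.8), 6.58 to 90.6 CPM in UN (median 10.8) and 2.73 to 5.16 CPM in U (median 3.25), a log2 fold change of 4.00 in UT against U (SE 0.68, FDR 0.00014). In bladder it measured 10.6 to 124 CPM with BBN (median 68.0), above the 4.67, 5.53 and 7.34 CPM without.

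All 7 mitotic cyclins and kinases rose in UT, by a median log2 fold change of 4.04. Ccnb1, the cyclin that carries cells into mitosis, showed the largest change of any member, 4.87 on the log2 scale (SE 0.83, FDR 0.00015). It measured 7.57 to 169 CPM in UT (median 48.6), 1.28 to 68.8 CPM in UN (median 8.30) and 0.846 to 2.23 CPM in U (median 1.76), so that UN alone overlapped with U. In bladder it measured 5.05 to 135 CPM with BBN (median 68.1) and 2.51, 2.13 and 1.32 CPM without. Its partner Cdk1, the kinase that starts mitosis, measured 10.9 to 107 CPM in UT (median 37.3), 4.28 to 66.3 CPM in UN (median 6.67) and 1.53 to 3.03 CPM in U (median 2.19). With BBN the bladders held 10.96 to 101 CPM of Cdk1 (median 50.6), and the untreated ones 1.46, 2.198 and 1.81 CPM. For Cdk1 no library of a BBN mouse overlapped with any of a tap water mouse.

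All 6 members of the spindle checkpoint and anaphase rose in UT, with a median of 4.11 on the log2 scale. Bub1b and Bub1, which hold anaphase back until chromosomes are attached, were next after Ccnb1 with log2 fold changes of 4.39 (SE 0.77, FDR 0.00018) and 4.24 (SE 0.86, FDR 0.00055). Cdc20, the activator of the anaphase-promoting complex, measured 12.4 to 135 CPM in UT (median 43.3), 0 to 62.1 CPM in UN (median 9.21) and 1.72 to 2.93 CPM in U (median 2.51). UN overlapped with U in Cdc20, with UN 6 at 0, and UT did not. In bladder Cdc20 measured 2.56 to 88.1 CPM with BBN (median 60.1) and 1.95, 3.93 and 2.65 CPM without. Birc5, or survivin, which guides chromosome segregation and blocks apoptosis, measured 10.4 to 91.7 CPM in UT (median 30.0), 5.65 to 64.7 CPM in UN (median 9.56) and 1.59 to 3.39 CPM in U (median 2.35). It was higher still in BBN bladder, at 27.9 to 119 CPM (median 51.1), where untreated bladders had 2.58, 1.86 and 1.75 CPM. The 8 members of the spindle, kinetochore and cytokinesis group, such as the motor Kif11 and the microtubule bundler Prc1, all rose too, with a median of 2.997 and a range of 2.02 (Kif20a) to 3.89 (Prc1).

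Most replication genes rose in UT as well. All 8 members of the replicative helicase were called higher, with a median log2 fold change of 1.76 and a range of 1.28 (Mcm7) to 3.06 (Mcm6). Mcm2, a subunit of the MCM ring, measured 22.6 to 133 CPM in UT (median 40.7), 7.59 to 71.1 CPM in UN (median 16.0) and 7.62 to 14.1 CPM in U (median 12.4), so that UN spanned the whole of U. The bladders held 5.75 to 104 CPM of Mcm2 with BBN (median 48.6) and 22.1, 20.7 and 24.3 CPM without. The untreated bladders thus had the higher CPM, but Mcm2 was not called in U against untreated bladder. Pcna, the sliding clamp of DNA polymerase, measured 61.9 to 159 CPM in UT (median 101), 17.3 to 130 CPM in UN (median 61.2) and 34.9 to 45.8 CPM in U (median 35.9). Its log2 fold change in UT, 1.14 (SE 0.25, FDR 0.0011), was the smallest among those called. In bladder Pcna measured 20.8 to 146 CPM with BBN (median 110) and 45.4, 56.9 and 59.6 CPM without. Rrm2, the regulated subunit of ribonucleotide reductase, stood apart from the clamp: it measured 14.2 to 273 CPM in UT (median 68.1), 6.20 to 108 CPM in UN (median 8.02) and 4.03 to 5.62 CPM in U (median 4.82), a log2 fold change of 3.98 in UT (SE 0.73, FDR 0.00026). It measured 9.55 to 168 CPM in BBN bladder (median 96.8) and 9.34, 12.0 and 12.0 CPM in untreated bladder.

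The 4 transcription factors did not move as 1 group. Foxm1, which switches on mitotic genes, measured 4.94 to 51.8 CPM in UT (median 11.9), 0.855 to 24.3 CPM in UN (median 2.62) and 0.716 to 1.72 CPM in U (median 1.53), a log2 fold change of 3.34 in UT (SE 0.66, FDR 0.00044). Mybl2, its partner at these genes, measured 3.31 to 55.7 CPM in UT (median 12.1), 1.57 to 15.2 CPM in UN (median 5.54) and 0.586 to 1.81 CPM in U (median 1.43), with nearly the same log2 fold change, 3.36 (SE 0.66, FDR 0.00044). E2f2 rose by 3.06 on the log2 scale (SE 0.33, FDR 3.0e-06), the lowest FDR of any member. E2f1, the founding activator of the family, measured 3.91 to 21.4 CPM in UT (median 10.2), 2.78 to 14.2 CPM in UN (median 6.83) and 4.03 to 6.37 CPM in U (median 5.08), so that all 3 ranges overlapped. In bladder E2f1 likewise overlapped, at 1.97 to 18.3 CPM with BBN (median 10.1) and 4.74, 7.86 and 4.57 CPM without. Foxm1 measured 0.562 to 33.4 CPM in BBN bladder (median 22.4) and 2.02, 2.13 and 3.19 CPM in untreated bladder, and Mybl2 5.05 to 30.6 CPM (median 15.3) and 3.83, 2.80 and 1.62 CPM.

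The G1/S cyclins and licensing factors and the chromatin genes lay between these roles. Ccne1, the cyclin that starts S phase, measured 6.64 to 44.3 CPM in UT (median 11.2), 1.92 to 21.4 CPM in UN (median 5.39) and 2.49 to 5.27 CPM in U (median 3.03), a log2 fold change of 1.78 in UT (SE 0.46, FDR 0.0034). In bladder it measured 1.41 to 25.5 CPM with BBN (median 19.1) and 1.60, 3.40 and 2.65 CPM without. Of the 5 genes of this role, Ccne1, Cdc6, Cdt1 and Gmnn rose in UT, and Ccne2 was not called. Ezh2, the enzyme that methylates lysine 27 of histone H3 and is most abundant in cycling cells, measured 16.0 to 59.6 CPM in UT (median 33.2), 5.99 to 34.6 CPM in UN (median 17.9) and 7.03 to 11.9 CPM in U (median 9.50), a log2 fold change of 1.60 (SE 0.30, FDR 0.00029). It measured 9.31 to 46.8 CPM in BBN bladder (median 37.3) and 21.4, 24.2 and 23.8 CPM in untreated bladder. Uhrf1, which carries DNA methylation over to the new strand, rose by 3.21 on the log2 scale in UT.

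**Figure D2:**
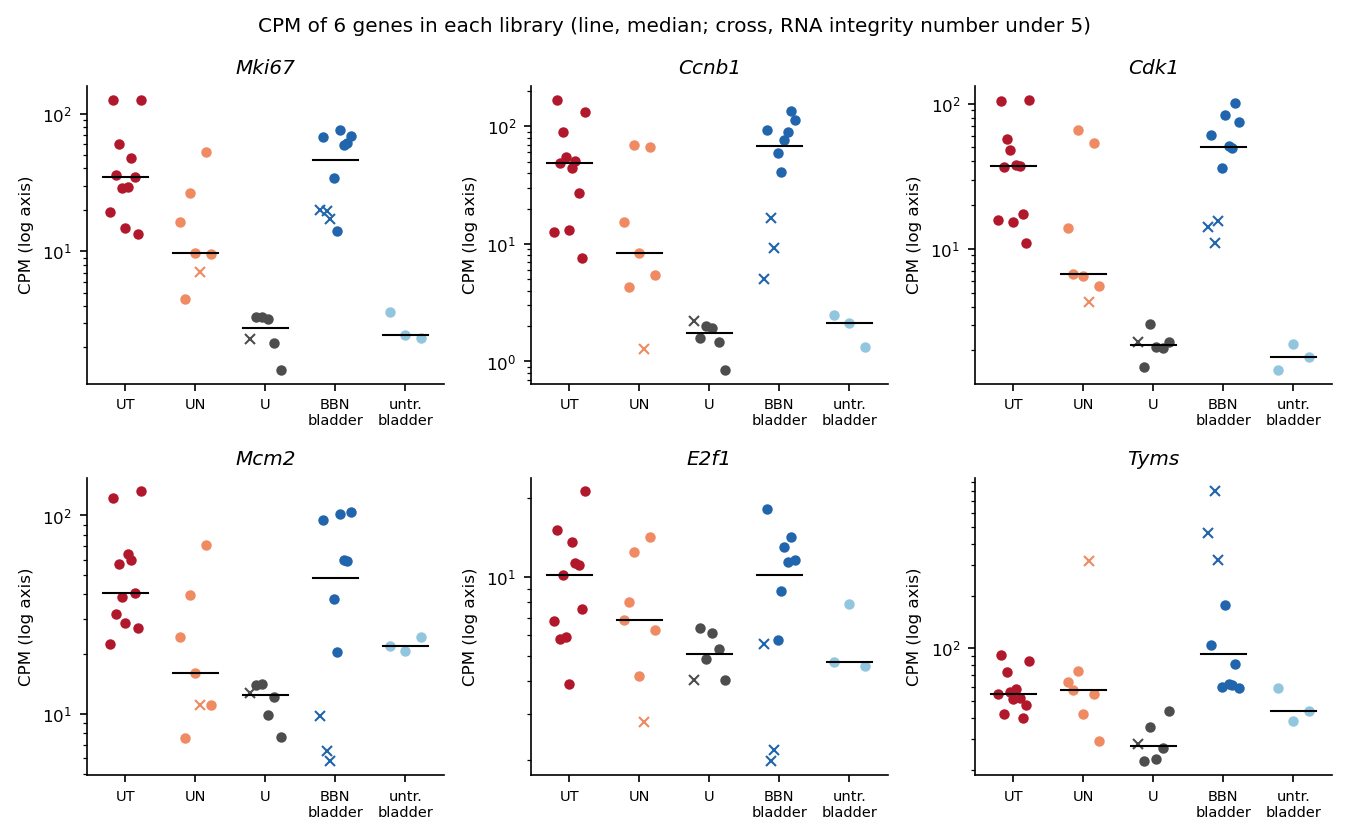
CPM on a log axis of 6 of the genes in each library of the 5 groups; lines are group medians and crosses are libraries with an RNA integrity number under 5. For Mki67 and Cdk1 the UT, UN and BBN bladder points all lie above those of the untreated organs, E2f1 ranges overlap, and the 4 crosses at the top of the Tyms panel are UN 6 and BBN bladders 1, 3 and 4.

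The same genes were next compared between the noncancerous side of BBN mice and the untreated ureter. In UN against U, 35 of 46 members were called higher and none lower, with a median log2 fold change of 2.05 (0.13 over all genes tested, of which 12.4% were called higher and 1.21% lower). The mitotic cyclins and kinases (7 of 7, median 3.13), the spindle checkpoint (6 of 6, median 3.04) and the spindle group (8 of 8, median 2.08) were called throughout in this fit. With the mouse as a random effect in limma's voom, which takes the 6 U libraries as 3 mice, only 6 of the 46 members were called, so most of these calls were lost. Of the replicative helicase 3 of 8 were called (median 1.03), namely Mcm5, Mcm6 and Gins2. The 3 largest changes were those of Ccnb1 (3.67, SE 0.81, FDR 0.0055), Cdk1 (3.18, SE 0.66, FDR 0.0036) and Ccnb2 (3.16, SE 0.66, FDR 0.0039), and the 3 smallest those of Ccne2 (0.43, SE 0.36, FDR 0.45), E2f1 (0.55, SE 0.35, FDR 0.30) and Mcm4 (0.57, SE 0.39, FDR 0.34).

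UN libraries differed widely among themselves. Their mean over the 46 members was 5.19 in UN 7, 4.73 in UN 3 and 3.77 in UN 1, and 2.54 to 2.99 in UN 2, 4, 6 and 9, still above the 2.39 of the highest U library. In 10 of the 46 members every UN library lay above every U library, as in 2.11% of all genes tested. Of the 43 members called in UT against U, 34 were also called in UN against U, a comparison that shares its U libraries. Without UN 6 and U 1R, the ureter libraries of low RNA integrity, 30 members were called in UN against U. Cdc6, Gins2, Kif20a, Kif23 and thymidylate synthase (Tyms) lost their calls (Tyms: log2 fold change 0.64, SE 0.27, FDR 0.15). Without the 3 ureter libraries whose urothelial markers fell below the lowest U library (UN 2, UN 6 and UT 9), 36 members were called and the median was 2.24.

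Cancerous and noncancerous sides of BBN mice were then set against each other. In UT against UN only Mki67 was called (log2 fold change 1.33, SE 0.46, FDR 0.098), where 1.32% of all genes tested were called higher and 4.26% lower. The median over the members was 0.93, with 45 of 46 above 0, and 22 had an unadjusted p under 0.05 in this direction and 1 in the other. Of all genes tested, 48.3% had values above 0, and 9.58% and 15.8% had an unadjusted p under 0.05 in these directions. Among the cell type markers given here, 3 of 6 smooth muscle markers (median −1.28) were called lower in UT, and their part in the result was not tested. Cenpe, the kinetochore motor (1.48, SE 0.53, FDR 0.10), and Top2a (1.37, SE 0.55, FDR 0.13) had larger values and were not called. At the other end were Tyms (−1.19, SE 0.42, FDR 0.10), E2f1 (0.17, SE 0.30, FDR 0.73) and Ccne2 (0.30, SE 0.32, FDR 0.55). The number called depended on single libraries: it was 20 without UN 3, 24 without UN 7 and 0 without UT 2, among others. With each mouse as its own replicate block none was called and the median was 0.92.

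The 7 mice with both a UT and a UN library differed among themselves. In mouse 2 the mean of the members was 6.17 in UT and 2.62 in UN. Mouse 4 (5.17 and 2.99), mouse 6 (4.68 and 2.54) and mouse 9 (3.50 and 2.84) also had the higher mean in UT. The order was the other way in mouse 1 (3.65 in UT and 3.77 in UN), mouse 3 (4.52 and 4.73) and mouse 7 (4.80 and 5.19). For Mki67 itself, 6 of the 7 mice had the higher level in UT. The UN libraries of mice 2 and 6 were those with the fewest urothelial transcripts (42.2 and 1282 CPM in the 13 markers), whereas that of mouse 4 held 6600 CPM. Without UN 2, UN 6 and UT 9 no member was called higher or lower by edgeR, 6 had an unadjusted p under 0.05, and the median log2 fold change was 0.83.

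**Figure D3:**
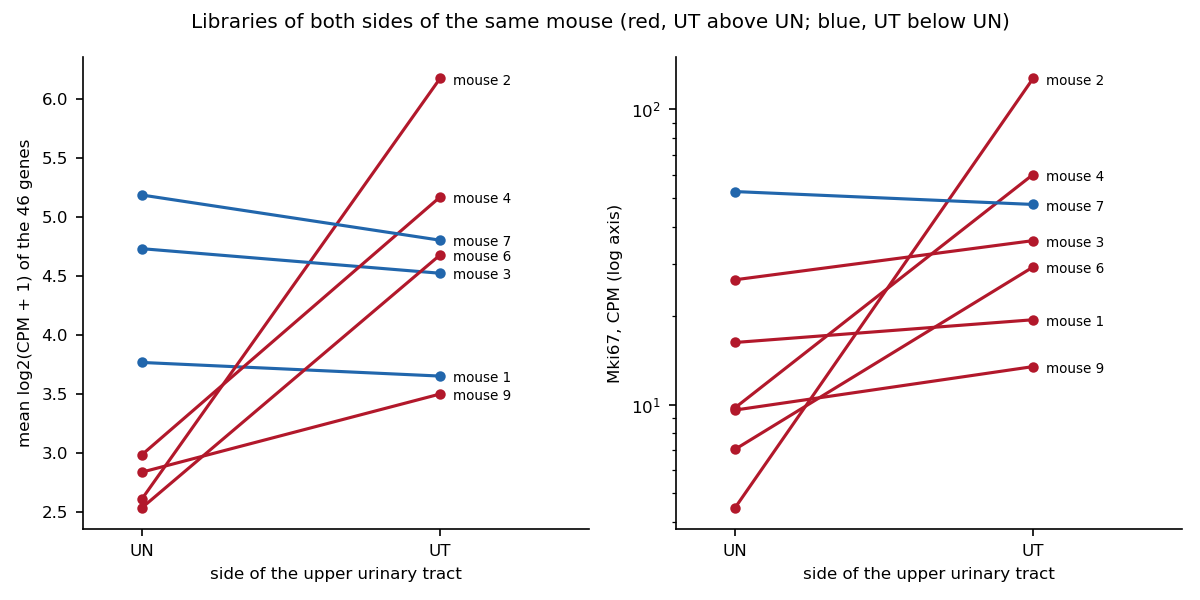
Mean log2(CPM + 1) of the 46 genes (left) and CPM of Mki67 on a log axis (right) in the UN and UT library of each of 7 mice, joined by lines; red lines rise and blue lines fall from UN to UT. The mean rises in mice 2, 4, 6 and 9 and falls in mice 1, 3 and 7, and Mki67 falls in mouse 7.

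The squamous and basal keratins (Krt14, Krt16, Krt6a, Krt6b and Krt17) were also higher in BBN mice, and followed the members in some libraries and not in others. Their sum was 7.7 to 12.5 CPM in U and 183 to 7008 CPM in UT, and all 5 were called higher in UT and in UN against U. UT 2, UT 10 and UT 4, with the highest means over the 46 members (6.17, 6.05 and 5.17), also held the most keratin transcripts (7008, 5407 and 4487 CPM), and among UN libraries UN 3 and UN 7 did (3721 and 2891 CPM). UT 1, with 2641 CPM, had a mean of only 3.65, whereas UT 7 and UT 6, with 1251 and 1287 CPM, had means of 4.80 and 4.68. UT 4 also held 2185 CPM of kidney tubule markers, against at most 16.6 CPM in every other ureter library, and without it 43 members were still called in UT against U. Markers of fat cells went the other way, at 16483 to 24132 CPM in U, 3557 to 21312 CPM in UN and 33.1 to 13419 CPM in UT. Smooth muscle markers summed to 1718 to 3149 CPM in U, 308 to 6323 CPM in UN and 361 to 2344 CPM in UT. Fibroblast markers summed to 1614 to 3116 CPM in U, 552 to 4692 CPM in UN and 1521 to 6147 CPM in UT. T cell markers were called higher in 4 of 5 cases in UT and in none in UN against U, and summed to 6.6 to 19.8 CPM in U, 1.1 to 185 CPM in UT and 6.7 to 58.0 CPM in UN. B cell markers, which can come with dividing lymphocytes, were called higher in 4 of 4 cases in UT and 3 of 4 in UN against U, where they summed to 4.3 to 30.3 CPM. In UT they summed to 2.0 (UT 2) to 620 CPM, with 13.2 CPM in UT 10. In UN they were highest in UN 7 and UN 3 (231 and 193 CPM), the 2 UN libraries with the highest means over the members, and 23.7 to 54.7 CPM in the other 5. The 4 neutrophil markers measured were called higher in both comparisons, and summed to 8.0 to 12.6 CPM in U, 25.8 to 548 CPM in UT with UT 2 the highest, and 14.7 to 307 CPM in UN with UN 2 the highest. The part of tissue makeup in the levels of the 46 members was not tested.

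In the bladder, BBN against tap water gave a comparison on a second organ. Here 33 of 46 members were called higher and none lower, and the median was 2.94 (0.24 over all 18064 genes tested, of which 7.61% were called higher and 5.74% lower). In 21 of the 46 every BBN bladder lay above every untreated bladder, as in 4.97% of all genes tested. The largest changes were in Ube2c, the enzyme that tags mitotic cyclins for destruction (5.71, SE 0.74, FDR 0.00019), Birc5 (5.22, SE 0.70, FDR 0.00026) and Ccnb1 (5.11, SE 0.82, FDR 0.0011). The smallest were in Kif23, a motor of cytokinesis (0.51, SE 0.60, FDR 0.60), Ezh2 (0.67, SE 0.29, FDR 0.15) and Rrm1 (0.73, SE 0.64, FDR 0.46). Mitotic cyclins and kinases (7 of 7, median 3.98) and the spindle checkpoint (6 of 6, median 4.65) were again called throughout, and the replicative helicase in 4 of 8 (median 1.86). Of the 43 members called in UT against U, 32 were called in bladder, and Ccne2 was called in bladder and not in ureter, though the difference between organs did not pass for it (−1.03, SE 0.54, FDR 0.20). Cell type markers differed in the same comparison, with squamous and basal keratins called higher in 5 of 5 cases (median log2 fold change 8.61) and neutrophil markers in 2 of 4, and urothelial markers called lower in 5 of 13 and fibroblast markers in 3 of 6. Their part in the levels of the members was not tested.

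The 3 BBN bladders with an RNA integrity number under 5 differed from the others. Their means over the 46 members were 3.11, 3.28 and 3.14, and the other 7 lay between 4.31 and 5.601. Mcm3, another subunit of the MCM ring, measured 1.89, 5.34 and 6.39 CPM in BBN bladders 1, 3 and 4 and 11.5 to 88.0 CPM in the other 7, while untreated bladders had 11.1 to 12.6 CPM. Birc5 did not follow, at 51.6, 50.6 and 55.1 CPM in these 3 and 27.9 to 119 CPM in the other 7. Without these 3 libraries 43 members were called, the 33 above and Cdc6, E2f1, E2f2, Kif20a, Mcm2, Mcm3, Mcm4, Mcm7, Pcna and Rrm1, with a median of 3.20, where 11.2% of all genes tested were called higher. All 8 helicase members were then called (median 2.19), and Kif23, Ezh2 and Tyms were still not.

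Tyms, which makes the thymidylate for DNA, was the member least like the rest. Pearson's r of log2(CPM + 1) with the mean of the other 45 members was 0.15 for Tyms over the 37 libraries, where the median member had 0.93 and the next lowest, E2f1, 0.77. The libraries fall into 5 groups that differ in organ and treatment, so r is a description only. Tyms measured 317 CPM in UN 6 and 458, 803 and 323 CPM in BBN bladders 1, 3 and 4, 179 CPM in BBN bladder 6, and 22.4 to 104 CPM in all others. The 4 highest values were thus in 4 of the 5 libraries with low RNA integrity, and U 1R, the other one, had 28.0 CPM. Within UT, where no library had an integrity number under 5, r was 0.80 for Tyms. Within UN it was −0.19, where the median member had 0.92.

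**Figure D4:**
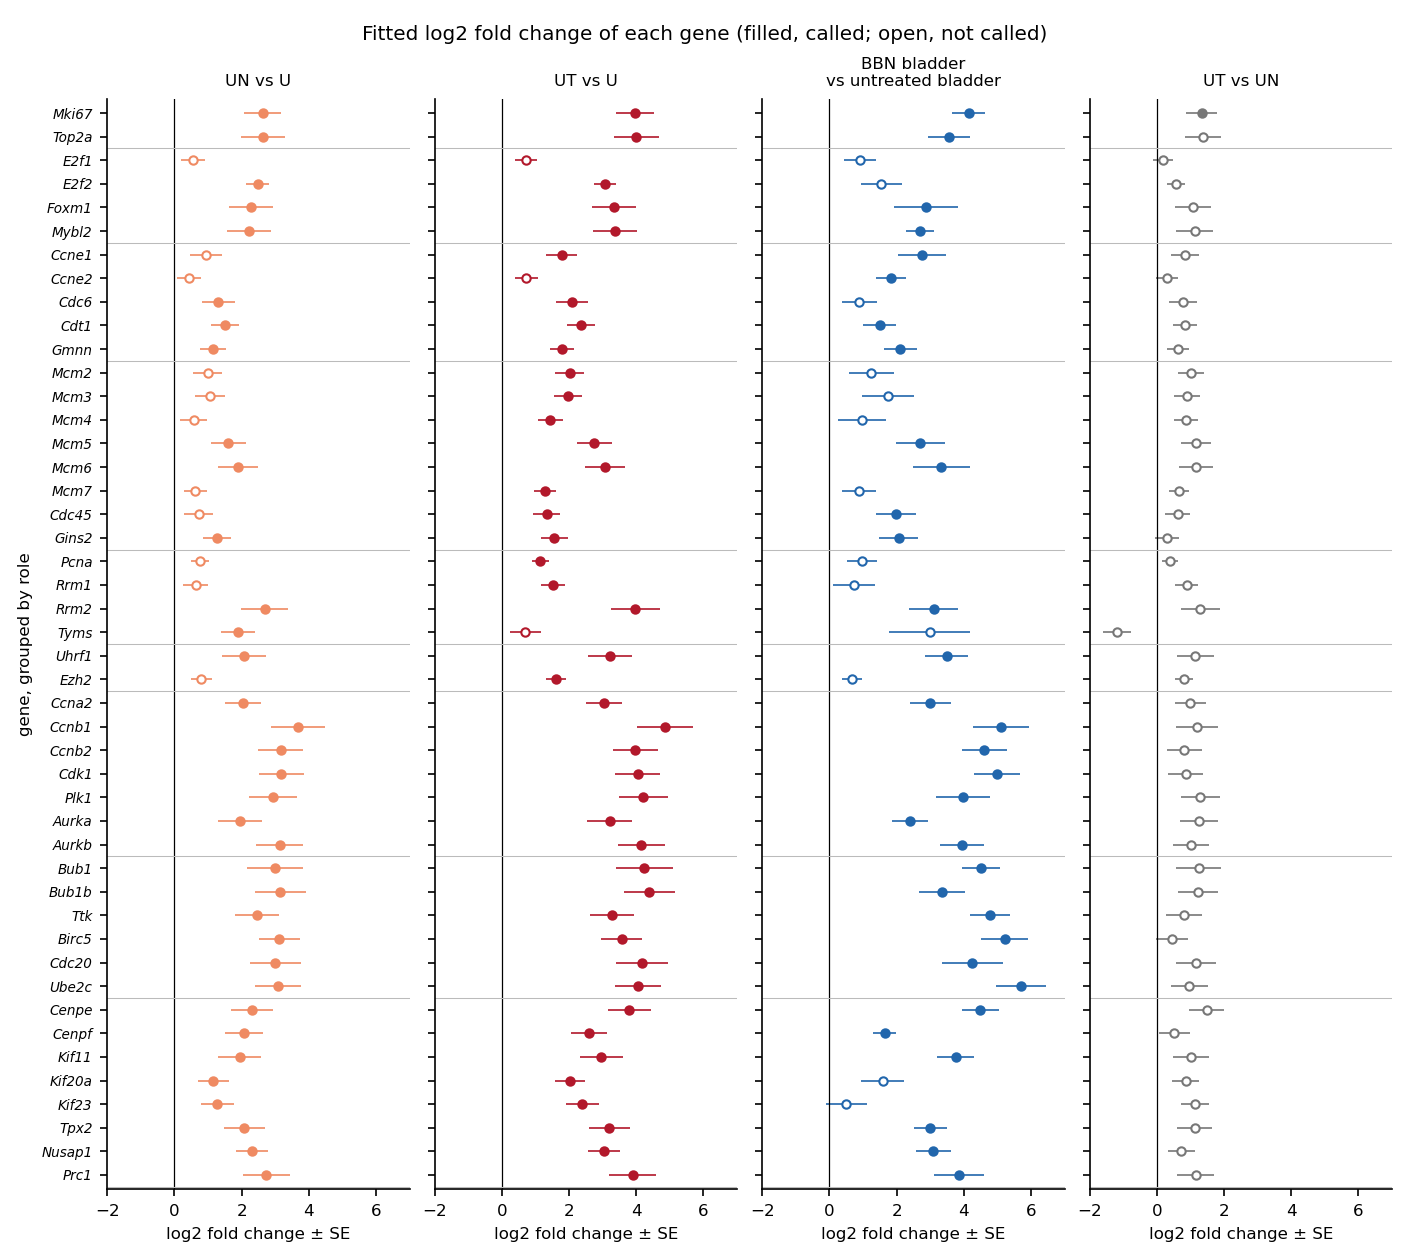
Fitted log2 fold change with its standard error for each of the 46 genes (rows, grouped by role) in 4 comparisons; filled points were called (FDR under 0.1 and fold change at least 2) and open points were not. The filled points number 35, 43, 33 and 1 from left to right, and the leftmost point of the UT against UN panel is Tyms at −1.19.

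Untreated ureter and untreated bladder were compared to see whether the resting organs differed. In U against untreated bladder no member was called higher and 3 were called lower, where 6.61% of 18974 genes tested were called higher and 8.62% lower, and the median was −0.09. In the same comparison 10 of 13 urothelial markers (median −2.36) and 3 of 6 smooth muscle markers were called lower, and 5 of 5 fat cell markers higher (median 6.52), and their part in the result was not tested. The 3 members were Kif23 (−1.98, SE 0.61, FDR 0.027), Cenpf, a kinetochore protein (−1.43, SE 0.56, FDR 0.088), and E2f2 (−1.26, SE 0.43, FDR 0.049). Kif23 measured 1.66 to 4.31 CPM in U and 13.4, 15.1 and 14.5 CPM in untreated bladder, and the groups did not overlap. E2f2 measured 0.319 to 0.585 CPM in U and 1.39, 0.866 and 1.75 CPM in untreated bladder, again with no overlap. The largest positive values were those of Ttk (1.06, SE 0.77, FDR 0.44), Ube2c (0.98, SE 0.80, FDR 0.51) and Ccne1 (0.81, SE 0.66, FDR 0.51), and Cdc6 stood at −1.42 (SE 0.58, FDR 0.11). Kif23 was called in all 21 alternatives, Cenpf in 8 (FDR up to 0.238) and E2f2 in 18 (not without untreated bladder 1 or 3, or with the mouse as random effect, FDR up to 0.282). Without the libraries of low RNA integrity Cdc6 was called lower (−1.38, SE 0.56, FDR 0.080) and Cenpf was not. With the mouse as replicate block, since both organs came from the same 3 mice, 5 were called lower (Kif23, Cenpf, E2f2, Cdc6 and Bub1b) and 2 higher (Ttk and Ube2c).

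Few members separated the cancerous ureter from the BBN bladder. In UT against BBN bladder none was called higher (7.05% of all genes tested) and 2 lower (21.9%), with a median log2 fold change of 0.05. On the log2(CPM + 1) scale the mean of the members had a median of 4.63 in UT and 4.91 in BBN bladder. The highest library of each group stood the other way, at 6.17 in UT and 5.601 in BBN bladder. The 2 called were Tyms (−2.52, SE 0.53, FDR 0.0011) and Birc5 (−1.03, SE 0.40, FDR 0.046). Ube2c was next (−0.60, SE 0.44, FDR 0.33), and the largest positive values were those of E2f2 (0.33, SE 0.27, FDR 0.38), Plk1 (0.28, SE 0.48, FDR 0.70) and Mcm6 (0.26, SE 0.46, FDR 0.71). Many cell type markers differed in this comparison, with 5 of 5 fat cell (median 3.57), 4 of 4 B cell, 4 of 5 endothelial, 3 of 4 macrophage and 4 of 5 kidney tubule markers called higher in UT and 5 of 6 smooth muscle markers lower (median −2.52). Their part in the levels of the members was not tested. Without the libraries of low RNA integrity neither Tyms nor Birc5 was called, at −0.71 for Tyms (SE 0.28, FDR 0.10) and −0.89 for Birc5 (SE 0.47, FDR 0.24). With the mouse as replicate block Birc5 alone was called (−1.17, SE 0.40, FDR 0.098), but in 11 of 33 alternatives Birc5 was not, among them those without UT 1, 5L, 8 or 9 or BBN bladder 4 or 6 and that with the integrity covariate (log2 fold changes from −1.33 to −0.78 over all 33).

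Whether BBN tissue differed from untreated tissue by as much in ureter as in bladder was tested as the difference of the 2 contrasts. E2f2 (1.59, SE 0.51, FDR 0.062) and Kif23 (1.96, SE 0.73, FDR 0.088) differed more in ureter, where 6.25% of all genes tested were called higher and 7.82% lower, and edgeR called no member as differing more in bladder (1 had an unadjusted p under 0.05 in that direction). DESeq2 called 3 in that direction, and voom with a variance for each group 5. The median was 0.11. Of the cell type markers 6 of 13 urothelial (median 1.98), 3 of 6 fibroblast and 2 of 5 kidney tubule markers were also called higher, and their part was not tested. In both genes the untreated levels differed between organs (above), while UT measured 2.26 to 8.93 CPM of E2f2 and 6.88 to 51.7 CPM of Kif23 against 1.02 to 5.63 and 2.68 to 40.7 CPM in BBN bladder. Next were Cdc6 (1.26, SE 0.69, FDR 0.22) and, in the other direction, Tyms (−2.19, SE 1.02, FDR 0.16), Ube2c (−1.58, SE 0.92, FDR 0.25) and Birc5 (−1.57, SE 0.82, FDR 0.20). Both organs came from the same mice, and with the mouse as random effect neither was called (E2f2 1.55, SE 0.59, FDR 0.106; Kif23 1.89, SE 0.71, FDR 0.101). Neither was called with RNA integrity as a covariate (FDR 0.1045 and 0.4025), and without the libraries of low integrity E2f2 was called and Kif23 was not (1.56, SE 0.72, FDR 0.20). Leaving out single libraries also ended these calls, for E2f2 untreated bladder 1 or 3 (FDR 0.148 and 0.213), and for Kif23 each untreated bladder, UT 2 or UT 10 among others (FDR 0.1002 to 0.2105).

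Another 111 cell cycle genes, outside the 46, were read with the same fits. In UT against U 69 were called higher and 4 lower (median 1.502), in UN against U 48 and none (median 0.94, and 17 with the mouse as random effect), and in BBN against untreated bladder 62 and none (median 1.80). Of all genes tested, 18.6%, 12.4% and 7.61% were called higher in these comparisons. Other mitotic genes (46) were called higher in 39, 32 and 38 cases in these 3 comparisons, and other replication genes (36) in 21, 11 and 18. Among the 8 inhibitors of cyclin-dependent kinases, Cdkn2a, which encodes p16 and p19ARF, was called higher in all 3, with log2 fold changes of 5.43 (SE 0.92), 4.07 (SE 0.93) and 6.32 (SE 1.08), from levels at or near 0 (at most 0.191 CPM in U) to a median of 2.22 CPM in UT and 3.16 CPM in BBN bladder. Cdkn1a, or p21, measured 15.2 to 22.5 CPM in U, 79.3 to 260 CPM in UT and 55.6 to 431 CPM in UN. U lay below both, which overlapped with each other, and UT and UN had log2 fold changes of 2.95 (SE 0.34, FDR 5.0e-06) and 3.03 (SE 0.35, FDR 0.00014). In bladder it measured 23.4 to 416 CPM with BBN and 70.9 to 81.3 CPM without (1.31, not called), and the change in ureter exceeded that in bladder by 1.71 (SE 0.54, FDR 0.059), a call lost with the integrity covariate (1.24, SE 0.52, FDR 0.205) and without any 1 of the 3 untreated bladders (FDR 0.136 to 0.181). Cdkn3, a phosphatase of these kinases, was called higher in all 3 (3.73, 3.61 and 5.35).

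Not every inhibitor or G1 gene moved this way. Cdkn2c, or p18, measured 103 to 199 CPM in U and 7.56 to 121 CPM in UT, and was called lower in UT against U (−2.10, SE 0.55, FDR 0.0042) and against UN (−1.72, SE 0.54, FDR 0.080). In bladder it was called higher with BBN (1.54, SE 0.48, FDR 0.057), from 2.09 to 7.79 CPM in untreated bladder, where the fat cell markers summed to 394.7 to 1126 CPM. This bladder call was lost in 2 of 22 alternatives (FDR up to 0.281). The part of fat tissue in Cdkn2c was not tested. Rb1, the pocket protein that holds E2F back, was called lower in UT against U (−1.38, SE 0.25, FDR 0.00021). Of the D cyclins of G1, Ccnd1 was called higher in UT (2.74), UN (1.90) and BBN bladder (1.14), the last of these not without any 1 of the 3 untreated bladders (FDR 0.273 to 0.321), without BBN bladder 2 (FDR 0.108), without a filter (FDR 0.154) or in the first range of library codes (FDR 0.146), and Ccnd2 and Ccnd3 in none of these 3 comparisons. In UT against UN, Incenp, a partner of Aurkb and Birc5, was the only one of the 111 called higher (1.21, SE 0.41, FDR 0.092) and Cdkn2c the only one called lower. Incenp lost this call in 20 of 30 alternatives (FDR up to 0.787) and Cdkn2c in 17 of 30 (FDR up to 0.770). The number of the 111 called higher was 0 to 30 with 1 library left out (0 without UT 2, 27 without UN 3 and 30 without UN 7) and 0 with the mouse as replicate block, where Cdkn2c was not called either.

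In the annotation, exons of 14 of the 46 members overlap another gene in GENCODE, and for 9 of these the other gene is in the count table, as with Ccne2 and Ints8, Mcm7 and Cops6, Gins2 and Gse1 or Kif20a and Cdc23. No source used here says that counting kept strands apart, so counts of these 9 members can hold reads of their neighbour.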

How the data were processed

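RNA was sequenced from 37 mouse tissue samples, 1 library each. The authors aligned reads to GRCm38/mm10, and the submitters' processing notes name TopHat2 2.1.1 and Cuffdiff 2.2.1. The deposited values are estimated counts, 1 row a gene and 1 column a library, of which 21.1% of nonzero values are fractional. These were rounded here to whole numbers, and CPM was computed from them. The library kit does not keep strand. Totals ran from 3558391 to 18794405 counts, and no 2 libraries of a group agreed within sampling noise.

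Groups came from the sample labels. edgeR 4.0.16 (R 4.3.3) with TMM scaling, its filter on low counts by group, quasi-likelihood tests and Benjamini-Hochberg adjustment over all genes tested was fitted to the ureter libraries for UT, UN and U, to the bladder libraries for BBN against tap water, and to all 37 for comparisons between organs. Alternatives used DESeq2 1.42.0 and limma 3.58.1. The members, roles and other gene lists were chosen with earlier results of these data known. Any of the 46 members could be named, 14 of them with levels in every group and the 3 with the largest and smallest changes in each comparison. Of the other cell cycle genes, kinase inhibitors, G1 cyclins and those with the largest called changes could be named. On simulated counts for UT against UN (15587 genes), 177 of 200 changed genes were recovered, with 12 false calls. The genes raised there had a fitted median log2 fold change of 2.03, and every group was given the same dispersion. The members' median in UT against UN was 0.93, so this share says nothing on changes of that size.

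UT and UN libraries of a number came from 1 mouse, as did U and untreated bladder. Same-mouse deviations correlated with a median of 0.00295 (−0.209 to 0.730) for UT and UN, 0.124 (−0.194 to 0.553) for UT and BBN bladder, and 0.0174 (−0.185 to 0.205) for U and untreated bladder. U holds both ureters of 3 mice, and UT both of mouse 5, so p-values there rest in part on spread within a mouse. The study's figures show 10 UT libraries, and all 11 were kept here. The values of a further list of cell type markers are not reported here.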

Additional observations from a re-analysis of the deposited data

Results flagged for a closer look

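In 72 groups of 4 to 10 libraries tested for a library far from the others, chance alone would mark about 1 in 20 groups, and 2 were marked. Both were in U 3L. The mean of the 4 transcription factors on the log2(CPM + 1) scale was 1.046 there and 1.344 in the nearest U library, a gap of 0.6513 of the group's range. Mybl2 was 0.6653 in U 3L and 1.241 in the nearest library, a gap of 0.6978 of the range.

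In the test of the difference between ureter and bladder in the change with BBN, 2 members were called, E2f2 (1.59 on the log2 scale, SE 0.51, FDR 0.062) and Kif23 (1.96, SE 0.73, FDR 0.088). Neither was called with the mouse as random effect or with RNA integrity as a covariate, and Kif23 was not called without the libraries of low integrity.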

How the results depend on the processing

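Of the counts recomputed under alternatives, 645 stayed within 1.5 times the reported count and 175 did not. Of the single-gene values, 2660 kept their call or its absence, 136 lost a call, 67 gained one and 11 reversed in sign. Mki67 in UT against UN lost its call in 21 of 30 alternatives. In UT against UN the number of members called higher was 2 with RLE scaling, 10 with DESeq2, and 0 with limma's voom (a variance for each group, or the mouse as random effect), with RNA integrity as a covariate, without libraries of low integrity, in the first range of library codes, with the 2 groups alone, and without UN 2, UN 6 and UT 9, a choice made after seeing the data. With the mouse as replicate block it was 0. It was 0 to 24 with 1 library left out, and the number called lower was 0 to 1 (1 with RLE and with DESeq2). E2f1 reversed to −0.13 with the integrity covariate and Tyms to 0.13 without UN 2, UN 6 and UT 9. UN against U gave 28 to 37 with 1 library left out and 6 with the mouse as random effect, and UT against U 42 to 43. BBN against untreated bladder gave 24 (without untreated bladder 1) to 36, and 31 to 43 under the other alternatives. Kif23 there reversed to -6.66e-05 in the first code range.

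In U against untreated bladder the number called higher was 1 with a variance for each group, with the integrity covariate and with the 2 groups alone, and 2 with the replicate block. The number called lower was 5 with a variance for each group and with the block, and 1 to 3 with 1 library left out. In UT against BBN bladder the number lower was 1 without a filter, with a variance for each group, without UN 2, UN 6 and UT 9 and with the block, 0 with the integrity covariate and without low integrity, and 1 to 2 with 1 library left out. Mcm6 there reversed to −0.20 and −0.17 with the integrity covariate and without low integrity (−0.0426 to 0.45 with 1 library left out). Plk1 reversed to −0.16 and −0.11 under the 2 voom fits, and to −0.26 and −0.12 under the integrity alternatives (−0.0217 to 0.44 with 1 library left out). For the difference between organs the number higher was 0 with the mouse as random effect and with the integrity covariate, 1 without low integrity, and 0 to 3 with 1 library left out. The number lower was 3 with DESeq2, 5 with a variance for each group, 1 in the first code range and without UN 2, UN 6 and UT 9, and 0 to 1 with 1 library left out. The members' median ran from −0.67 to 0.38 there and from −0.34 to 0.24 in UT against BBN bladder, so neither has a settled sign. The cause of these changes was not tested. RLE scaling moved the median of all genes by −0.18 in UT against BBN bladder and by −0.28 in the difference between organs.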
